A study of Mus musculus with 14 samples.

Results

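The 7 annexin genes Anxa1, Anxa2, Anxa4, Anxa5, Anxa6, Anxa7 and Anxa11 were followed in splenic regulatory T cells of the mouse. They are named members of the annexin family, out of 30284 genes in the tables, and all 7 passed the filter on low counts. The list was selected on family membership with earlier results on read counts of the same comparison known, so the differences in level between the groups are descriptions of these genes and no independent evidence. Foxp3+YFP+ cells were sorted from C57/B6 mice of both genotypes. The talin KO mice were Tln1fl/fl Foxp3cre/wt, with floxed alleles of Tln1, the gene of the integrin-activating adaptor talin-1. The control mice were Tln1wt/wt Foxp3cre/wt, so every animal of both groups carried 1 Foxp3-driven Cre allele. Cre is thus driven by Foxp3, and cells that never use Foxp3 are not its target. Each library came from 1 or 2 animals, whose age the labels do not give. The 14 libraries formed 3 talin KO-labelled and 4 control units of 2 libraries each, with 39314880 to 56772674 estimated reads per talin KO-labelled unit and 13017008 to 39706502 per control unit.

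Annexins are cytosolic proteins that bind membranes rich in negatively charged phospholipids when calcium rises. They share a conserved calcium-binding core and differ in the N-terminal tail, which binds partners such as S100 proteins. Annexin A1 is a glucocorticoid-induced mediator that can leave the cell and act on formyl peptide receptors, and it has been described as a modulator of T cell activation. Annexin A5 binds exposed phosphatidylserine and is the common stain for dying cells.

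The labels were checked before the members. Tln1 message was at 788, 901 and 1010 CPM (counts scaled to a common library size) in talin KO-labelled units 1 to 3, against 634, 543, 847 and 649 CPM in control units 1 to 4. The groups overlapped, and in CPM the talin KO-labelled units did not lie below the control units (log2 fold change 0.43 ± 0.18, SE; edgeR adjusted p = 0.126). In TPM, which depends on how reads are divided between transcripts, Tln1 was at 139, 195 and 178 in the talin KO-labelled units, against 286, 63.7, 325 and 259 in the control units. There too the groups overlapped, with control unit 2 the lowest of all and the other 3 control units above every talin KO-labelled unit. Reads from undeleted parts of a floxed allele would still be counted, so the level of the message does not check the deletion. The units are called talin KO-labelled throughout, and every direction rests on the labels. The 14 regulatory T cell markers, among them Foxp3 and Il2ra, were all detected, with summed levels of 2390 to 3200 CPM in the talin KO-labelled units and 3960 to 5010 CPM in the control units. Of these 14, 0 were called higher and 9 lower, beside 6.52% of all genes called lower. Foxp3 was nearly level, at 428 ± 76.1 CPM in the talin KO-labelled units and 419 ± 71 CPM in the control units (SD, edgeR adjusted p = 0.923). Il2ra fell, from 706 ± 38.1 CPM in the control units to 373 ± 49.5 CPM in the talin KO-labelled units (SD, edgeR adjusted p = 0.0055). Markers of other cells were higher in the talin KO-labelled units: their values stand beside the Anxa1 result. Across 15775 genes tested with edgeR, 13.6% changed, 7.07% higher and 6.52% lower in the talin KO-labelled units, and the median log2 fold change was 0.06.

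Sequences are shown first for the 2 genes whose levels differed most between the groups, Anxa1 and Anxa2. The lines give RefSeq windows of the build GRCm38.p6 from 250 bases before to 50 bases after the annotated start, 5′ to 3′ on the gene's strand. Anxa1 lies at chr19:20390622-20390921 on the minus strand and Anxa2 at chr9:69453433-69453732 on the plus strand. The search covered both strands. The letters sought for the TATA box were TATAAA. For the CAAT box they were CCAAT, and for the GC box they were GGGCGG. AP-1 sites were sought as TGANTCA, a site of the STAT family was sought as TTCNNNGAA, and a site of the RUNX family was sought as TGTGGT. Capitals mark the matches, and matches of different motifs did not overlap in these windows.
Anxa1: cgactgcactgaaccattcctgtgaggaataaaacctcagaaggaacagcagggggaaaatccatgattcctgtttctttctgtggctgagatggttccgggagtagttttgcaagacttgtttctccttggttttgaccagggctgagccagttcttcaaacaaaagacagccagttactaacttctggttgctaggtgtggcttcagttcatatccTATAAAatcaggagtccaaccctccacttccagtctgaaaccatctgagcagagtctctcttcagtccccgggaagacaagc
Anxa2: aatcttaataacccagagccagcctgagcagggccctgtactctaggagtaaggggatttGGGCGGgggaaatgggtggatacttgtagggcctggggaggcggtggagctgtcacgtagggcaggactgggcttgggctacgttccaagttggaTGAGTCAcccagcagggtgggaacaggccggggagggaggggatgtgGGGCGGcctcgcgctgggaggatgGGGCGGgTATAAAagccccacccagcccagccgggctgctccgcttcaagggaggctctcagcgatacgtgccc
The Anxa1 window held 1 match, TATAAA at position -32 from the start. In the Anxa2 window, TATAAA was at position -17, GGGCGG occurred 3 times and TGANTCA was at position -95. Of 32851 windows of this length, 13.6% held TATAAA, 35.7% held GGGCGG and 7.81% held TGANTCA. The CAAT, STAT and RUNX letters occurred in 37.4%, 8.3% and 16.8% of all windows. Windows were found for 6 of the 7 members, 8 in all, and Anxa6 had none. TATAAA occurred in the windows of Anxa1 and Anxa2 but in none of the windows of Anxa4, Anxa5, Anxa7 and Anxa11. The Anxa1 window had 3 CpG dinucleotides and 47.3% GC, the Anxa2 window 13 and 63.7%, and the Anxa11 window 25 and 59.7%. A match is a run of letters and no evidence that a factor binds there.

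Of the 7 members, Anxa1 alone passed the test across all genes (1 higher and 0 lower), beside the 7.07% of all genes called higher. Anxa1 message was 15.7-fold higher in the talin KO-labelled units. The other 6 members had log2 fold changes between -0.26 and 0.63, and none of them passed. The groups did not overlap for 1 of the 7 members, again Anxa1, which was higher, beside 30.8% of all genes tested without overlap and 16.7% without overlap and higher. The members' median log2 fold change was 0.15.

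**Figure D1:**
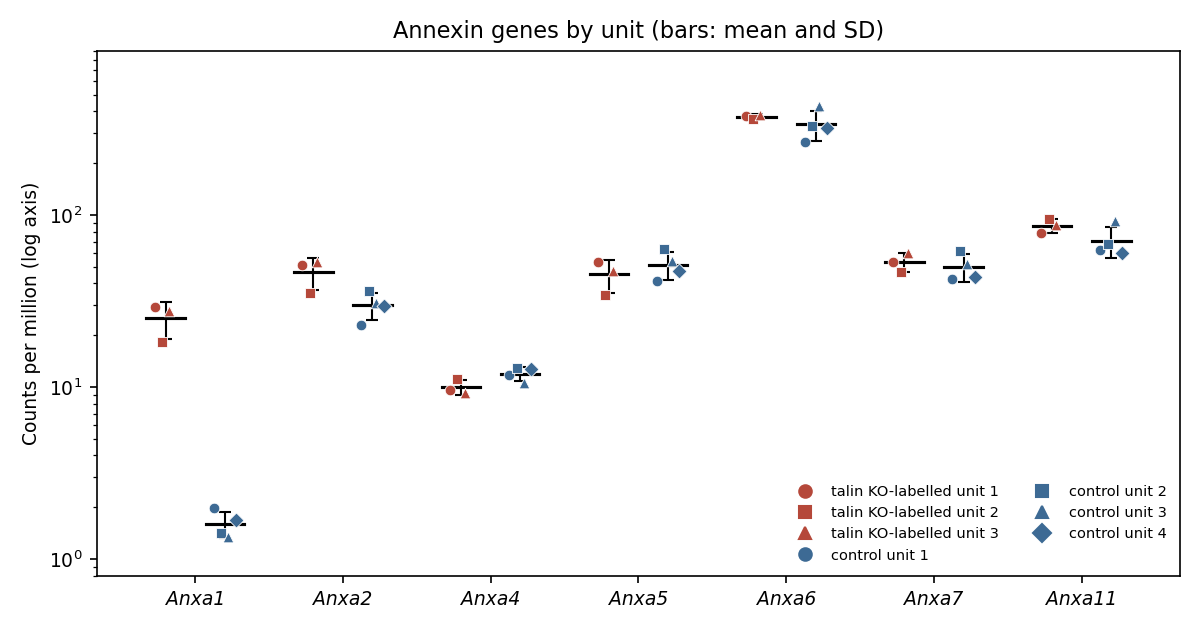
CPM of each annexin gene (log axis) in the 3 talin KO-labelled units (red) and the 4 control units (blue); 1 point is 1 unit, lines are group means and bars SDs. Anxa1 lies at 18.2 to 29.1 CPM in the talin KO-labelled units and at 1.35 to 1.97 CPM in the control units, while the groups of the other 6 genes overlap.

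Anxa1 (ENSMUSG00000024659; GRCm38 chromosome 19, 20373428 to 20390944, minus strand) was at 29.1, 18.2 and 27.8 CPM in talin KO-labelled units 1 to 3, against 1.97, 1.42, 1.35 and 1.68 CPM in control units 1 to 4. The lowest talin KO-labelled unit was thus far above the highest control unit. In estimated reads these were 1314, 714 and 1569 in the talin KO-labelled units, against 25, 29, 54 and 22 in the control units. The log2 fold change was 3.98 ± 0.27 (SE; edgeR adjusted p = 0.000112), which ranked 372 among the 15775 genes from the highest down. It lay between 3.85 and 4.16 when any 1 unit was left out, and the gene passed in 7 of 7 such fits. Both libraries of each unit gave the same picture: 30.3 and 28.7 CPM in talin KO-labelled unit 1, 18.2 and 18.5 in unit 2 and 29.2 and 26.8 in unit 3. The 8 control libraries lay between 0.938 and 2.07 CPM. The single coding transcript of Anxa1 in the tables (ENSMUST00000025561, 13 exons) held 76.3 ± 6.4% of the Anxa1 reads in the talin KO-labelled units and 74.7 ± 18.6% in the control units (SD, n = 3 and 4).

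Markers of other cell types moved with Anxa1. The 10 neutrophil markers, none of them at 0 in every control unit, summed to 473, 264 and 1410 CPM in talin KO-labelled units 1 to 3, against 20.7, 2.49, 3.53 and 7.51 CPM in control units 1 to 4. The 10 myeloid markers summed to 685, 310 and 765 CPM in the talin KO-labelled units, against 215, 40.2, 41.9 and 68.8 CPM in the control units. The 10 B cell markers summed to 421, 349 and 186 CPM in the talin KO-labelled units, against 111, 47.8, 40.0 and 53.7 CPM in the control units. On every one of these lists the talin KO-labelled units lay above the control units. Within the talin KO-labelled group, unit 2 was the lowest for the neutrophil, myeloid, and erythroid and platelet lists. Unit 3 was the lowest for the B cell, dendritic cell and cytotoxic lymphocyte lists. Unit 2 was also the lowest of the 3 for 5 of the 7 members, Anxa1 among them. At the other end, Anxa1 was highest in unit 1, at 29.1 CPM, with 27.8 CPM in unit 3. The B cell, dendritic cell and cytotoxic lymphocyte lists were highest in unit 1 too. The neutrophil, myeloid, and erythroid and platelet lists were highest in unit 3. Of the neutrophil markers, 9 of 10 rose, of the myeloid ones 4 of 10 and of the B cell ones 6 of 10. It was 3 of 8 for dendritic cell, 4 of 8 for cytotoxic lymphocyte and 1 of 9 tested for erythroid and platelet markers. On these lists 0 fell, and 7.07% of all genes tested were called higher. Markers near 0 in the control units, such as Ly6g, passed the count filter through the talin KO-labelled units. The defining neutrophil gene Ly6g was at 0.944, 0.383 and 0.711 CPM in the talin KO-labelled units, against 0.157 CPM in control unit 1 and 0 reads in the other 3. Dendritic cell markers summed to 78.9 to 104 CPM in the talin KO-labelled units and 29.4 to 41.0 CPM in the control units. Cytotoxic lymphocyte markers spanned 57.5 to 105 CPM in the talin KO-labelled units and 33.7 to 43.5 CPM in the control units, and erythroid and platelet markers spanned 76.7 to 2900 CPM in the talin KO-labelled units and 7.55 to 52.2 CPM in the control units. The general T cell markers summed to 3070 to 3670 CPM in the talin KO-labelled units and 3520 to 4420 CPM in the control units. Of these 10 genes, 0 rose and 1 fell, beside 6.52% of all genes called lower. The part of other cells in the Anxa1 difference was not tested, and in sorted bulk samples more cells of a type and more RNA per cell cannot be told apart.

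**Figure D2:**
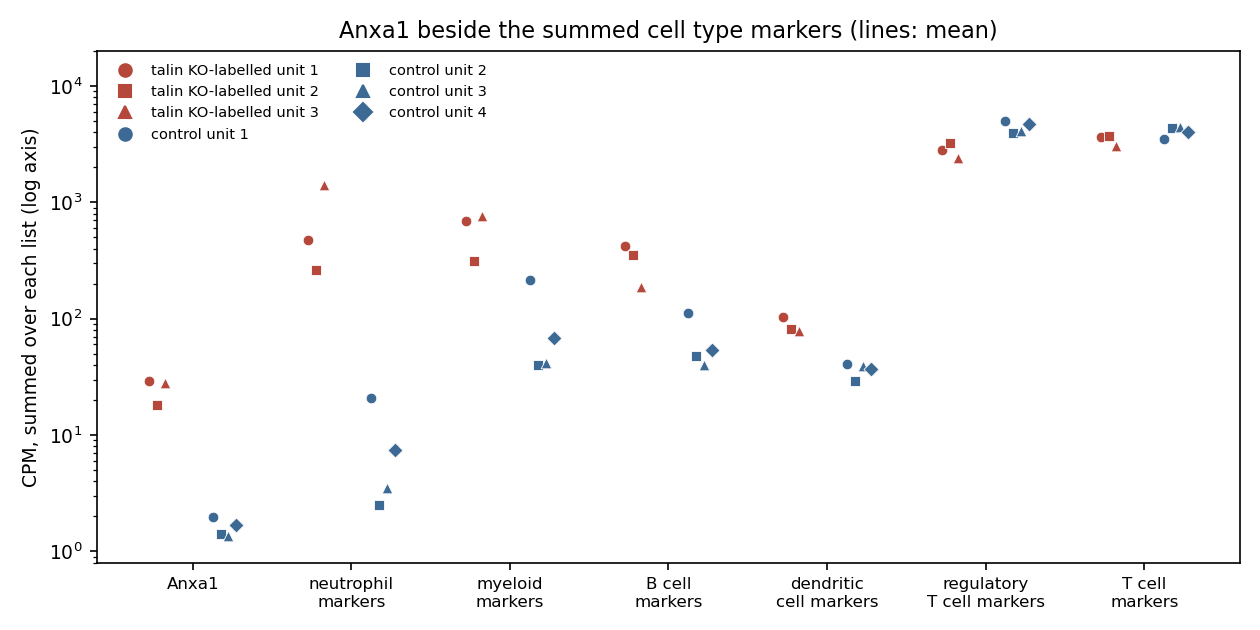
Anxa1 and the summed levels of 6 fixed marker lists in CPM (log axis), with 1 point per unit, red for the 3 talin KO-labelled and blue for the 4 control units. No group means are drawn. Anxa1 and the neutrophil, myeloid, B cell and dendritic cell lists are higher in every talin KO-labelled unit, and the regulatory T cell list is lower in each of them.

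Anxa2 (ENSMUSG00000032231; chromosome 9, 69453620 to 69491795, plus strand) encodes the annexin that forms a complex with S100A10 and binds plasminogen at the cell surface. It was at 50.9, 35.0 and 53.0 CPM in talin KO-labelled units 1 to 3, against 22.9, 36.1, 30.9 and 29.7 CPM in control units 1 to 4. Talin KO-labelled unit 2 lay among the control units, just under control unit 2, and the other 2 lay above them all. The log2 fold change of 0.63 ± 0.19 (SE) was just short of the edgeR threshold (adjusted p = 0.0536). It was 0.80 without talin KO-labelled unit 2 (adjusted p = 0.0374), and the adjusted p over all settings tried ran from 0.0287 to 0.293. An antisense gene overlaps exons of Anxa2, and since the library kit kept no strand its reads cannot be told apart from those of Anxa2.

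Anxa6 (ENSMUSG00000018340; chromosome 11, 54979108 to 55033445, minus strand), whose product carries a duplicated core, was the most abundant member. It stood at 377, 360 and 382 CPM in talin KO-labelled units 1 to 3, against 264, 328, 429 and 322 CPM in control units 1 to 4. The talin KO-labelled units were close together and lay inside the range of the control units, whose extremes were units 1 and 3. The log2 fold change was 0.15 ± 0.17 (SE; edgeR adjusted p = 0.565), and it turned to -0.04 when the trend on GC content and length was taken out.

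Anxa5 (ENSMUSG00000027712; chromosome 3, 36448923 to 36475894, minus strand) has a single transcript in the tables, so its reads were not divided between isoforms. It was at 53.4, 34.4 and 47.4 CPM in talin KO-labelled units 1 to 3, against 41.1, 63.2, 54.1 and 47.3 CPM in control units 1 to 4. The groups overlapped, with the lowest value in talin KO-labelled unit 2 and the highest in control unit 2. The log2 fold change was -0.19 ± 0.19 (SE; edgeR adjusted p = 0.519).

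Anxa7 and Anxa11, both on chromosome 14, encode annexins with long N-terminal tails; human annexin A11 binds the calcium sensor ALG-2, encoded in mice by Pdcd6. Anxa7 (ENSMUSG00000021814; 20455260 to 20480133, minus strand) was at 53.6, 46.3 and 60.1 CPM in talin KO-labelled units 1 to 3, against 42.4, 61.7, 52.1 and 43.3 CPM in control units 1 to 4. Its groups covered nearly the same range (log2 fold change 0.10 ± 0.16, SE; edgeR adjusted p = 0.721). Anxa11 (ENSMUSG00000021866; 25842156 to 25886804, plus strand) was at 78.0, 94.1 and 87.7 CPM in talin KO-labelled units 1 to 3, against 62.8, 67.4, 92.0 and 60.1 CPM in control units 1 to 4. Control unit 3 lay among the talin KO-labelled units and the other 3 control units lay below them, with a log2 fold change of 0.29 ± 0.16 (SE; edgeR adjusted p = 0.238). Of its 31-base words, 15.12% also occur in other genes, nearly all in the pseudogenes Gm2260 and Gm2274, and an antisense gene overlaps its exons, so its level is uncertain. With the reads of both pseudogenes added, a setting chosen after the data were seen, the log2 fold change was 0.33 ± 0.18 (SE; edgeR adjusted p = 0.219). It was 0.04 with the trend on GC content and length taken out (edgeR adjusted p = 0.874) and 0.45 without control unit 3 (edgeR adjusted p = 0.055).

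Anxa4 (ENSMUSG00000029994; chromosome 6, 86736840 to 86793584, minus strand), best known from epithelial cells, had the fewest reads of the members in the talin KO-labelled units. It was at 9.55, 11.1 and 9.24 CPM in talin KO-labelled units 1 to 3, against 11.7, 12.9, 10.5 and 12.7 CPM in control units 1 to 4. The groups met at talin KO-labelled unit 2 and control unit 3 (log2 fold change -0.26 ± 0.21, SE; edgeR adjusted p = 0.422). Most of its reads, 63.0 ± 3.6% in the talin KO-labelled units and 68.4 ± 15.9% in the control units (SD, n = 3 and 4), were assigned to ENSMUST00000127152, a transcript annotated as subject to nonsense-mediated decay.

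**Figure D3:**
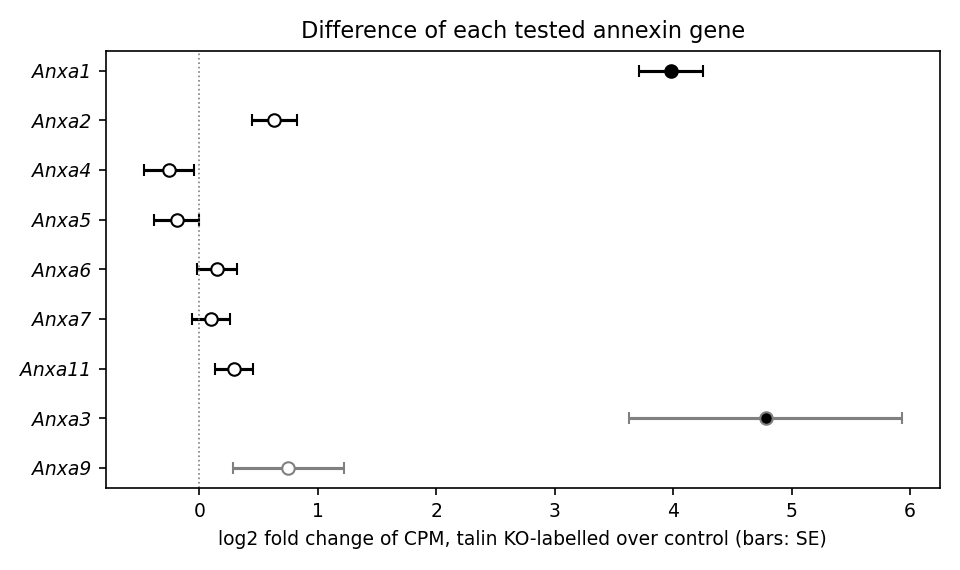
Log2 fold change of CPM, talin KO-labelled over control, for the 7 members (black) and the 2 other annexin genes that passed the count filter (grey); bars are SEs and filled points passed the edgeR threshold. Anxa1 at 3.98 and Anxa3 at 4.78 stand apart from the rest, which lie between -0.26 and 0.75. Anxa3 was near 0 in the control units and passed the count filter through the talin KO-labelled units.

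Per length, as TPM (transcript abundance scaled by effective length and library), Anxa6 led in both groups, with 136 ± 6.33 TPM in the talin KO-labelled units and 128 ± 34.8 TPM in the control units (SD, n = 3 and 4). In the talin KO-labelled units the order after Anxa6 was Anxa1, Anxa2, Anxa11, Anxa5, Anxa7 and Anxa4. In the control units it was Anxa5, Anxa11, Anxa2, Anxa7, Anxa4 and Anxa1. The ranges of Anxa1 and Anxa2 overlapped in the talin KO-labelled units, as did those of Anxa2 and Anxa11. In the control units, Anxa5 overlapped with Anxa11 and Anxa11 with Anxa2. Every other pair of neighbours in the order was separate.

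The high place of Anxa1 rested in large part on a short transcript. Summed over all its transcripts, Anxa1 was at 52.6, 32.8 and 42.7 TPM in talin KO-labelled units 1 to 3, against 1.81, 2.44, 2.36 and 1.27 TPM in control units 1 to 4. A retained-intron transcript of 217 bases (ENSMUST00000167668) gave 48.8%, 43.6% and 52.7% of that TPM in the talin KO-labelled units, while holding 2.48 ± 0.295% of the Anxa1 reads there (SD, n = 3), and it had 0 reads in the control units. Division by its short effective length turns few reads into a large TPM. From protein-coding transcripts alone, an alternative chosen after the data were seen, Anxa1 was at 12.2, 7.68 and 12.0 TPM in the talin KO-labelled units, against 1.01, 0.37, 0.67 and 0.79 TPM in the control units. This count leaves out every non-coding transcript, among them also ENSMUST00000164587, at 6.37, 8.98 and 5.74 TPM in talin KO-labelled units 1 to 3. Anxa1 was then the sixth of the 7 members in the talin KO-labelled units, above Anxa4 alone, and still the last in the control units. The order from coding transcripts was Anxa6, Anxa2, Anxa11, Anxa5, Anxa7, Anxa1 and Anxa4 in the talin KO-labelled units. In the control units it was Anxa6, Anxa5, Anxa2, Anxa11, Anxa7, Anxa4 and Anxa1. The share of Anxa1 in the summed TPM of the 7 members was 17.2%, 11.1% and 14.5% in the talin KO-labelled units over all transcripts, against 0.928%, 1.07%, 0.763% and 0.597% in the control units. From coding transcripts it was 4.95%, 3.13% and 4.85% in the talin KO-labelled units, against 0.593%, 0.174%, 0.237% and 0.415% in the control units. Under both counts the groups did not overlap. The CPM values of Anxa1 given above do not depend on transcript length.

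**Figure D4:**
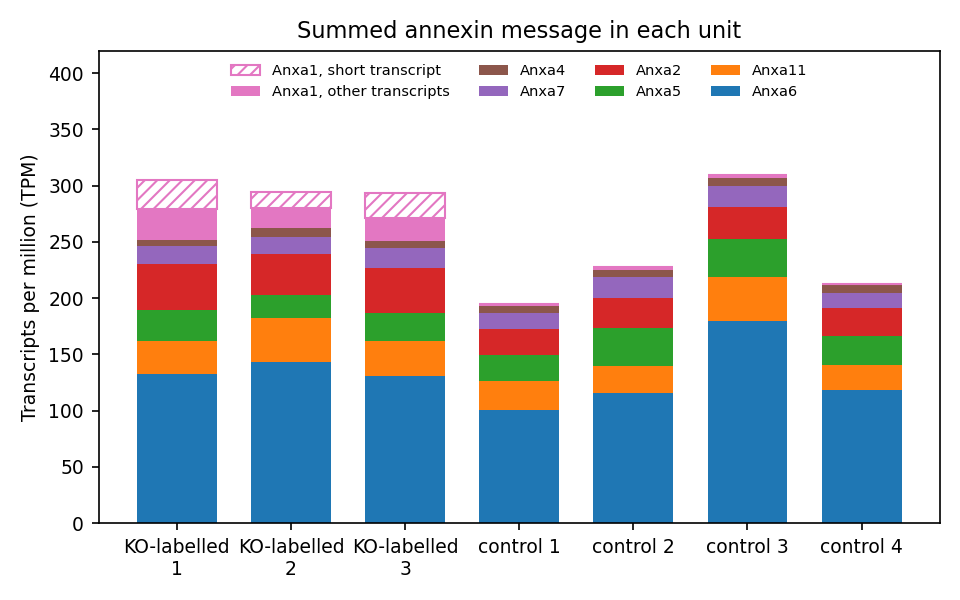
Summed TPM of the 7 annexin genes in each unit, 1 colour per gene with bars starting at 0; the hatched part of Anxa1 is its transcript of 217 bases. Anxa6 is the largest part of every bar, and the hatched part is 43.6% to 52.7% of the Anxa1 TPM in the talin KO-labelled units and absent from the control units.

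Transcript shares are a measure that the choice of the genes did not use. An exon of 18 bases, 6 codons, separates the main coding transcripts of Anxa6. It is exon 21 of the 26 in ENSMUST00000108883, at chr11:54987051-54987068 of GRCm38 on the minus strand, and the other main transcript joins its neighbours directly. A second such exon, of 66 bases or 22 codons, is exon 6 of the 14 in ENSMUST00000100844, at chr14:20467458-20467523 on the minus strand. Both are printed because they separate the transcripts whose shares are given below. Those shares are estimated reads assigned to whole transcripts and no count of reads that cover an exon. Capitals mark the exon and lower case 30 bases on each side, from GENCODE transcripts.
Anxa6 exon: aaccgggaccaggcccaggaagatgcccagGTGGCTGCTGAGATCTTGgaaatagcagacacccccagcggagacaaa
Anxa7 exon: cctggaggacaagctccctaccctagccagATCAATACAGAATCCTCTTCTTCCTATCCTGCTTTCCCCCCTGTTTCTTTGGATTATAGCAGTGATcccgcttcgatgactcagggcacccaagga
The transcript with the Anxa6 exon took 45.94%, 43.59% and 43.92% of the Anxa6 reads in talin KO-labelled units 1 to 3, against 26.79%, 50.66%, 50.21% and 29.82% in control units 1 to 4. The talin KO-labelled units agreed within a few percent, whereas the control units fell on both sides of them, units 1 and 4 below and units 2 and 3 above. Control units 1 and 4 were also those with the fewest reads, and the part of depth in this was not tested. The transcript with the Anxa7 exon was rare, at 2.79 ± 1.6% in the talin KO-labelled units and 3.25 ± 3.42% in the control units (SD, n = 3 and 4). Shares changed in 0 of the 6 members with more than 1 transcript by edgeR's test of transcript shares, beside 5.33% of 8161 genes, and in 0 by limma's diffSplice, beside 8.63%. At an unadjusted threshold of 0.05, edgeR called 0 of the 6, beside 17% of all genes, and limma 1, Anxa2, beside 25.7%. For Anxa6 the adjusted p was 0.932 with edgeR and 0.783 with limma. Of the retained-intron transcript of Anxa1, 0 reads in the control units stood beside 22 to 54 reads of the whole gene, too few in any 1 unit to show a share as small as in the talin KO-labelled units.

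**Figure D5:**
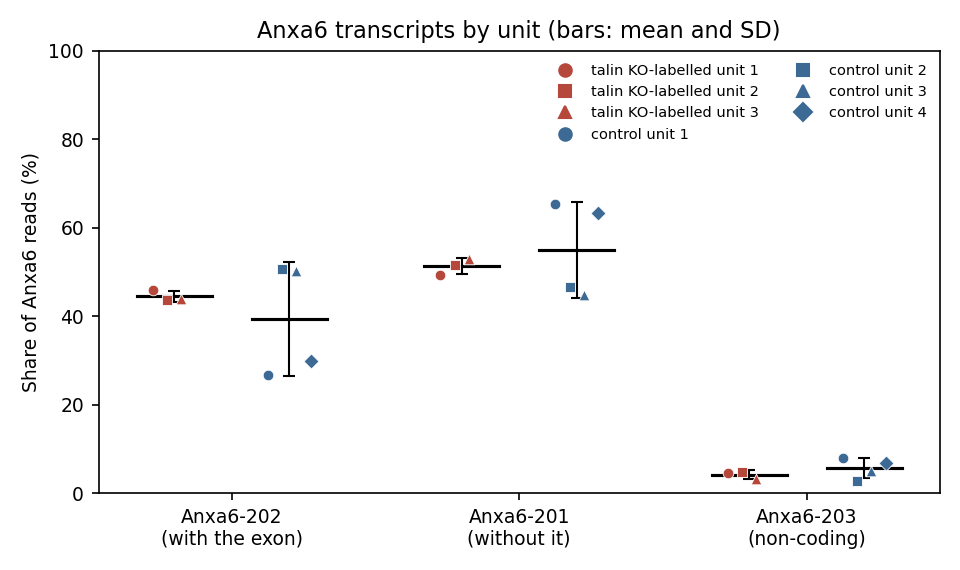
Share of the Anxa6 reads, in percent, assigned to each transcript in the 3 talin KO-labelled (red) and 4 control (blue) units; lines are means and bars SDs. The transcript with the exon of 18 bases lies between 43.59% and 45.94% in the talin KO-labelled units and between 26.79% and 50.66% in the control units.

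Other annexin genes were low. Anxa3, an annexin of neutrophils and monocytes, was at 4.78, 2.12 and 13.8 CPM in talin KO-labelled units 1 to 3, against 0.551, 0.488, 0.025 and 0 CPM in control units 1 to 4. With at most 10 reads in any control unit, it passed the count filter through the talin KO-labelled units, so its rise is partly fixed by the filter. It rose by 4.78 ± 1.15 on the log2 scale (edgeR adjusted p = 0.039), with its highest value in talin KO-labelled unit 3. The neutrophil, myeloid, and erythroid and platelet lists were highest there too. The B cell, dendritic cell and cytotoxic lymphocyte lists were highest in unit 1. Mpo alone held 930 of the 1410 CPM of the neutrophil list in unit 3, whereas S100a9 was highest in unit 1. The part of other cells in the Anxa3 difference was not tested. The Anxa3 call was lost without control unit 1, 2 or 4 or talin KO-labelled unit 1 or 3 (edgeR adjusted p 0.048 to 0.0828 over the 7 fits). Anxa9 was at 2.53 ± 1.22 CPM in the talin KO-labelled units and 1.51 ± 0.64 CPM in the control units (SD, n = 3 and 4; edgeR adjusted p = 0.294). Anxa8 had at most 2 reads in any unit, and Anxa10 and Anxa13 had 0 reads in all units.

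Partners of the annexins were followed through fixed lists. The counts of each list stand beside 7.07% of all genes called higher and 6.52% called lower. Of 13 S100 genes and relatives, 9 were tested; 2 rose, 1 fell and the median log2 fold change was -0.02, against 0.06 over all genes. S100a10, whose product pairs with annexin A2, was at 141, 106 and 120 CPM in talin KO-labelled units 1 to 3, against 129, 166, 143 and 160 CPM in control units 1 to 4. It was lower in most talin KO-labelled units, with overlap, and did not pass (log2 fold change -0.29 ± 0.14, SE; edgeR adjusted p = 0.19). S100a11, a partner of annexin A1, was at 38.3 ± 10.1 CPM in the talin KO-labelled units and 31.1 ± 9.85 CPM in the control units (SD, n = 3 and 4; edgeR adjusted p = 0.439). S100a6 was at 18.7 ± 5.66 CPM in the talin KO-labelled units and 19.0 ± 5.34 CPM in the control units (edgeR adjusted p = 0.966). The genes that rose were S100a1 and S100a9, the last also on the neutrophil list, and S100pbp, which encodes a binding protein and no S100 protein, fell. With the trend on GC content and length taken out, S100a1 was at 1.49 (edgeR adjusted p = 0.0807) and S100pbp at -0.40 (edgeR adjusted p = 0.0852), both without passing. With 1 unit left out, S100a1 passed in 1 of 7 fits, the one without control unit 1. S100a9 passed in 2, those without control unit 1 or 3, and S100pbp in 2, those without control unit 3 or talin KO-labelled unit 1.

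Among 14 genes of calcium sensors and membrane repair, 2 rose (Gca and Myof), 2 fell (Sri and Vps4b) and the median log2 fold change was -0.04. Pdcd6, the ALG-2 gene, averaged 50 ± 4.23 CPM in the talin KO-labelled units and 52.4 ± 6.52 CPM in the control units (SD, n = 3 and 4; edgeR adjusted p = 0.763). Sri, which encodes sorcin, a calcium sensor that binds annexin A7, was at 128, 121 and 107 CPM in talin KO-labelled units 1 to 3, against 160, 203, 169 and 176 CPM in control units 1 to 4. It fell by 0.57 ± 0.13 on the log2 scale (edgeR adjusted p = 0.0218), but with the trend on GC content and length taken out it was at -0.31 without passing (adjusted p = 0.0846). Vps4b, an ATPase of the ESCRT machinery, was at 107 ± 15.2 CPM in the talin KO-labelled units and 168 ± 18.8 CPM in the control units (edgeR adjusted p = 0.0197), and it too did not pass with that trend taken out (adjusted p = 0.135). With 1 unit left out, Gca passed in 0 of 7 fits. Sri was lost without control unit 2 or 4 or talin KO-labelled unit 2 or 3, and Vps4b without control unit 4 or talin KO-labelled unit 2 or 3. Myof was lost without control unit 2 or 4 or talin KO-labelled unit 3.

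Of 12 genes that move phosphatidylserine between membrane faces, 1 rose and 2 fell, with a median log2 fold change of -0.01. Atp8b4, a flippase gene, rose to 26.3, 23.6 and 48.1 CPM in talin KO-labelled units 1 to 3, against 5.90, 4.49, 2.83 and 4.50 CPM in control units 1 to 4 (edgeR adjusted p = 0.000998) and passed whichever unit was left out. Tmem30a, the shared subunit of most flippases, was at 162, 142 and 105 CPM in talin KO-labelled units 1 to 3, against 252, 243, 197 and 259 CPM in control units 1 to 4. It fell by 0.80 ± 0.17 on the log2 scale (edgeR adjusted p = 0.0161). With the trend on GC content and length taken out, it was at -0.34 without passing (edgeR adjusted p = 0.0669). The call was also lost without control unit 4.

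Around annexin A1, 3 of 9 tested genes of its receptors and of lipid mediator synthesis rose and 0 fell. Across all genes, 7.07% were higher and 6.52% lower. Several of the 9, such as Alox5, Ptgs2, Fpr1 and Fpr2, were very low in the control units. They passed the count filter through the talin KO-labelled units, so the list's median log2 fold change of 3.26 is partly fixed by the filter. Alox5, which encodes 5-lipoxygenase of leukotriene synthesis, was at 2.81, 1.81 and 4.99 CPM in talin KO-labelled units 1 to 3, against 0.157, 0.147, 0.0499 and 0 CPM in control units 1 to 4 (edgeR adjusted p = 0.00286). Its partner gene Alox5ap rose by 4.09 ± 0.82 on the log2 scale and Ptgs2, the inducible cyclooxygenase gene, by 5.11 ± 1.19 (edgeR adjusted p = 0.0226 and 0.0363). The receptor genes Fpr1 and Fpr2 stayed at or below 4.71 CPM in every unit and did not pass (edgeR adjusted p = 0.12 and 0.0958), and Fpr3 had 0 reads. Alox5 passed whichever unit was left out. Alox5ap was lost without control unit 2 or 4 or talin KO-labelled unit 3, and Ptgs2 without control unit 2 or 4 or any 1 of the talin KO-labelled units. The myeloid and neutrophil sums given with Anxa1 moved with this list as well, and their part in it was not tested. Of the plasminogen genes linked to annexin A2, 1 of 5 tested rose and 0 fell. It was Plaur, the urokinase receptor gene, at 6.42, 9.75 and 7.10 CPM in talin KO-labelled units 1 to 3, against 1.57, 1.51, 1.40 and 1.68 CPM in control units 1 to 4 (edgeR adjusted p = 0.00196).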

How the data were processed

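Each of the 14 tables was made by the authors with kallisto against GRCm38 transcripts, per the submitters' processing notes. Its release is in no source used here. The deposited values called expected counts are estimated reads per transcript without normalization, and the deposited TPM values are scaled by effective transcript length (lengths are other columns of the file headers). Counts were summed per gene with GENCODE vM21 names (2079 of 88198 transcripts found no gene), over the 2 libraries of a unit, and rounded. The first number of a title was taken as the unit; no label says that the second is another animal, so p-values measure the spread between units, which may be partly technical.

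Genes were tested with edgeR 4.0.16 in R 4.3.3 (TMM, filterByExpr, robust quasi-likelihood, Benjamini-Hochberg FDR 0.05); the SE is the log2 fold change over the root of F. CPM uses TMM library sizes, and TPM is the mean of a unit's libraries. Transcript shares were tested with edgeR's diffSpliceDGE. Tested on simulated counts, it called unchanged genes more often than its FDR allows. The diffSplice test of limma 3.58.1, which was not run on the simulated counts, is given beside it. DESeq2 1.42.0 served as an alternative. The members and lists were chosen with earlier results of these data known. Named genes are the members, Tln1, other annexins, list members past the threshold (at most 4 with the smallest adjusted p a list) and the 2 genes nearest to each member; partner genes named without passing were chosen after their values were seen. A few genes that this rule takes in are not reported here. Numbers shared by units of both groups did not pair them.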

Additional observations from a re-analysis of the deposited data

Results flagged for a closer look

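Anxa11 in control unit 3 stood apart from the other control units per length: it was at 39.0 TPM there, with 22.7 to 25.3 TPM in the other 3. The gap to the nearest unit was 0.84 of the whole range, over the critical value for 4 samples. In CPM the same unit was again the highest, at 92.0, but with a ratio of 0.771. Of 19 sets of control values examined, this was the single one over the critical value, and chance alone marks about 1 in 20.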

How the results depend on the processing

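Anxa1 passed in all 20 settings beside the one reported, with log2 fold changes of 3.85 to 4.28. The count of members that were higher was 2 (Anxa1 and Anxa2) with library size scaling only, with a filter at a mean of 5 CPM, with DESeq2, with an effective length offset and with the second libraries alone. It ran from 1 to 2 when 1 unit was left out, 2 being without talin KO-labelled unit 2, and no member was lower in any setting. Anxa6 changed sign with the GC and length offset (-0.04) and with that offset and the replicate block (-0.02). Across all genes, 2144 changed as reported, 3546 with DESeq2, 1153 with the GC and length offset, and between 758 and 1905 without 1 unit (758 without control unit 4, 977 without talin KO-labelled unit 3, 1122 without control unit 2 and 1131 without talin KO-labelled unit 2). The replicate block left 612 calls, and 244 with the offset; Anxa1 passed in both. The numbers do not pair the units: deviations of same-numbered units correlated at 0.03, -0.12 and -0.05 across genes, and no talin KO-labelled unit correlated best with the control unit of its own number. In CPM, which favours long transcripts, 3 of the 7 members kept their place in the order of levels in the talin KO-labelled units and 3 in the control units; with the second libraries alone, 5 did in the talin KO-labelled units. From protein-coding transcripts alone, 2 kept their place in the talin KO-labelled units and 5 in the control units, the short Anxa1 transcript and all other non-coding ones being left out. In the talin KO-labelled units the members other than Anxa1 then kept their order among themselves. In the control units Anxa11 and Anxa2 changed places, with means of 27.7 and 26 TPM over all transcripts and 21.9 and 25 TPM over coding ones. The cause of the shifts in the other settings was not tested. Transcript shares changed in 0 members under every setting tried. Over all settings, the log2 fold change ran from -0.34 to -0.04 for Anxa4, from -0.33 to -0.03 for Anxa5, from 0 to 0.21 for Anxa7 and from 0 to 0.45 for Anxa11, and none of these genes passed. The value for Anxa11 was 0 with the replicate block and the GC and length offset. With 22 to 54 reads per control unit, Anxa1 has the largest relative counting error of the members in the control units.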

Other observations

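The genes whose profile over the 7 units lay nearest to each member were looked for among 8652 protein-coding genes, by the root-mean-square difference of centred log2 CPM. For Anxa1 they were Plac8 (0.393) and Fn1 (0.41), the fibronectin gene. Plac8 was at 62.1, 39.6 and 88.4 CPM in talin KO-labelled units 1 to 3, against 8.73, 5.72, 5.22 and 4.19 CPM in control units 1 to 4. Fn1 was at 28.2, 28.6 and 48.9 CPM in the talin KO-labelled units, against 5.51, 2.10, 2.02 and 2.67 CPM in the control units. For Anxa2 they were Atox1 (0.111), which encodes a copper chaperone, and Prdx5 (0.114), which encodes a peroxiredoxin. Anxa5 had Uqcrc2 (0.0732) and Atp5e (0.0796) as neighbours, genes of the mitochondrial respiratory chain and ATP synthase, and Anxa7 had Copz1 (0.049) and Tmed9 (0.0498), genes of vesicle transport. Anxa4 lay nearest to Apopt1 (0.0504) and Trir (0.0561), Anxa6 to Tesc (0.0582), and Anxa11 to Abi3 (0.0495) and Rin3 (0.053). Among the members themselves, Anxa6 and Anxa11 had the most similar profiles (0.149), while Anxa1 lay at least 1.65 from every other member. All of these distances include the difference between the groups.

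The pseudogenes that share sequence with Anxa11 were low. Gm2260 was at 7.68, 9.03 and 9.56 CPM in talin KO-labelled units 1 to 3, against 5.74, 0, 8.84 and 0.686 CPM in control units 1 to 4 (edgeR adjusted p = 0.596). Gm2274 was at 7.68, 2.42 and 6.48 CPM in the talin KO-labelled units, against 4.96, 3.71, 8.67 and 5.79 CPM in the control units (edgeR adjusted p = 0.931). The groups overlapped for both.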
